A study of Mus musculus with 9 samples.

Results

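The 9 genes described here mark the oligodendrocyte lineage from its progenitor to the myelinating cell: Cspg4, Pdgfra, Olig1, Olig2, Nkx2-2, Sox10, Gpr17, Cnp and Mbp. They were chosen by symbol, through the Ensembl gene identifier of each row, and not by their values. All 9 were found among the 48526 gene identifiers of the count table, and all 9 were among the 18858 genes with enough counts to be tested. The samples were cultures of neural stem cells (NSCs) from the subependymal zone (SEZ) of adult wild-type mice (C57BL/6 in the labels, C57BL/6J in the methods of the study), with no engineered allele and no added drug in any group. NSCs at 0 h were in proliferation conditions with EGF and FGF. Those at 1 h and 6 h had been put on an adhesive substrate (Matrigel) without EGF, a growth factor that keeps NSCs dividing, and with FGF still present. Per the methods of the study, cells fixed early after induction were first seeded in medium with both growth factors. Whether this held for the sequenced cultures is not stated. Each time point had 3 stranded mRNA libraries, numbered replicate 1, 2 and 3 in the labels, which makes 9 libraries in all. These cultures are a model of the first hours of differentiation outside the niche, and the labels do not state how many animals each library came from or what libraries of 1 number share.

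Oligodendrocyte progenitors carry the proteoglycan NG2, encoded by Cspg4, and the receptor for platelet-derived growth factor (PDGF), encoded by Pdgfra, and they divide in response to that ligand. The transcription factors Olig1, Olig2, Nkx2-2 and Sox10 set up and maintain the lineage, Gpr17 marks a passing stage between progenitor and mature cell, and Cnp and Mbp belong to the cells that wrap axons in myelin. NSCs of the adult SEZ produce neurons and glia, including a small output of oligodendrocytes, and Olig2 is also present in their dividing descendants.

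Library totals were between 65871454 and 105592597 counts. Markers of NSCs were abundant in every library, with a summed level of 5257 to 8322 CPM (counts scaled to the library total) led by Vim, Fabp7 and Nes. Astrocyte markers summed to 1378 to 1940 CPM (led by Slc1a3, Aldh1l1 and Gja1) and ependymal markers to 39.6 to 93.3 CPM (led by Foxj1, Dynlrb2 and Ccdc153). Most of the astrocyte sum was Slc1a3, with means of 1074 CPM at 0 h and 1331 CPM at 6 h. Aldh1l1 had 140 and 149 CPM and Gja1 135 and 134 CPM. Gfap (1.31 and 0.887 CPM), Aqp4 (1.48 and 1.58 CPM) and S100b (1.88 and 2.22 CPM) were scarce. Most of the ependymal sum was Foxj1 (61.3 and 46.7 CPM), beside 1.45 and 1.65 CPM for Dynlrb2. Endothelial markers, led by Flt1, Kdr and Tek, summed to 3.23 to 20.0 CPM. Microglia markers summed to 0.122 to 0.570 CPM, led by Csf1r, P2ry12 and Tmem119, with C1qa and Itgam at 0 in all 9 libraries. Neuronal markers (led by Syt1, Gad1 and Tubb3) had sums of 40.0 to 82.7, 46.4 to 86.7 and 75.8 to 139 CPM in time order. Mean CPM at 0 h and 6 h was 22.8 and 70.3 for Syt1, 29.8 and 28.8 for Gad1, and 3.76 and 7.83 for Tubb3. At 6 h against 0 h, 4 of the 7 markers had a log2 fold change above zero and 3 below it. With the replicate number in the fit, 4 were called higher and 0 lower (edgeR, adjusted p under 0.05), and the median was 0.50. That fit called 17.4% of all tested genes higher and 17.5% lower. Without the replicate number, none of the 7 was called (edgeR, 2 at an unadjusted p under 0.05). The part of neuronal cells in the results below was not tested. In such bulk samples, a smaller number of cells of a type and less RNA of a gene per cell cannot be told apart.

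The promoters of 4 genes that rose by 6 h are shown because these genes moved in the same direction from very different levels, and their upstream sequence can be read side by side. Each runs from 250 bases before to 50 bases after the RefSeq start of the gene, in GRCm38.p6, written 5′ to 3′ on the strand of the gene. Capitals mark E-boxes (CANNTG), the letters bound by basic helix-loop-helix factors such as Olig1 and Olig2, and GC boxes (GGGCGG, or CCGCCC on the other strand).
Cspg4, chr9:56864854-56865153, plus strand: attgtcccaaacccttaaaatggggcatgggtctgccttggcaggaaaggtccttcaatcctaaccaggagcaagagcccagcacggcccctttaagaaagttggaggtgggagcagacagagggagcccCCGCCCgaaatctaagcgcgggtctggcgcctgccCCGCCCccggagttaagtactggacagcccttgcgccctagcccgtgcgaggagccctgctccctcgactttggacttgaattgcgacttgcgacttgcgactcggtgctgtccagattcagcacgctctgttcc
Pdgfra, chr5:75152001-75152300, plus strand: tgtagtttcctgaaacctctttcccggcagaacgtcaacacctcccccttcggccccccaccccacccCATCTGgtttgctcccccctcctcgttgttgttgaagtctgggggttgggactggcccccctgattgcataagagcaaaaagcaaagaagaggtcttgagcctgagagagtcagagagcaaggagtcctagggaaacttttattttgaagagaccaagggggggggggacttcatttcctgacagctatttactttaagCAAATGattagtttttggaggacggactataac
Olig2, chr16:91225300-91225599, plus strand: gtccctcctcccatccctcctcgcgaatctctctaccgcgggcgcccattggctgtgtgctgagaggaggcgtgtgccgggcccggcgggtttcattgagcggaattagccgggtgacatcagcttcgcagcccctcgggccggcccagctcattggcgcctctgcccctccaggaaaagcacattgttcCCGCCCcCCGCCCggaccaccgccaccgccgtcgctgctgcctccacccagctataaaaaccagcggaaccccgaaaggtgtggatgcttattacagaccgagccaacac
Cnp, chr11:100574689-100574988, plus strand: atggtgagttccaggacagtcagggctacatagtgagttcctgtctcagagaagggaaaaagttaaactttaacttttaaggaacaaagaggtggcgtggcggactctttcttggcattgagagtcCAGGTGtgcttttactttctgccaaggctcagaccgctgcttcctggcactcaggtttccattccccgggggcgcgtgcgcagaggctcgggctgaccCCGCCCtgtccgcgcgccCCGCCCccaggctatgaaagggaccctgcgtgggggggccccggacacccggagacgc
The Cspg4 and Olig2 promoters each held 2 GC boxes and no E-box. That of Cnp held 1 E-box and 2 GC boxes, and that of Pdgfra held 2 E-boxes and no GC box. Cspg4 and Olig2 each also held 1 copy of the core letters recognised by SOX factors (ACAAT, both strands, no overlap with the other motifs searched). Nkx2-2, which did not pass the test at 6 h, had 3 E-boxes, 1 GC box and 1 SOX core. Among 32851 mouse promoters of the same length, 72.3% held an E-box, 35.7% a GC box and 31.0% the SOX core, so such matches were frequent and they describe letters only. No promoter is shown for Olig1, Sox10, Gpr17 and Mbp.

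The levels of the 9 genes covered a very wide range. On the scale of length-corrected abundance (TPM, counts divided by the exonic length of the gene and scaled to a common total), the mean over 9 libraries was 2072 TPM for Olig1 and 912 TPM for Olig2. These transcription factor genes ranked above 99.9% and 99.5% of the tested genes. Cnp followed with 67.7 TPM, then Cspg4 with 30.7 TPM, Nkx2-2 with 9.05 TPM and Pdgfra with 3.995 TPM. The other three were scarce, with Gpr17 at 0.664 TPM, Mbp at 0.274 TPM and Sox10 at 0.145 TPM, and Sox10 ranked above only 2.16% of the tested genes. Olig1 exceeded Olig2 without overlap, by 1.83 to 2.81 times within a library, and Olig2 exceeded Cnp without overlap. The ranges of Cnp and Cspg4, of Cspg4 and Nkx2-2, of Nkx2-2 and Pdgfra, of Gpr17 and Mbp, and of Mbp and Sox10 overlapped over the 9 libraries. Within a library, Cnp still exceeded Cspg4 in 9 of 9 (by 1.02 to 4.70 times) and Gpr17 exceeded Mbp in 9 of 9 (by 1.14 to 4.03 times). Cspg4 exceeded Nkx2-2 in 7 of 9, Nkx2-2 exceeded Pdgfra in 6 of 9 and Mbp exceeded Sox10 in 6 of 9, so these neighbours in the order did not differ beyond their spread. The order was the same when the longest transcript was used as the length. NSC cultures thus held very high RNA levels of the 2 Olig genes at 0 h, beside very low levels of Sox10, Gpr17 and Mbp.

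**Figure D1:**
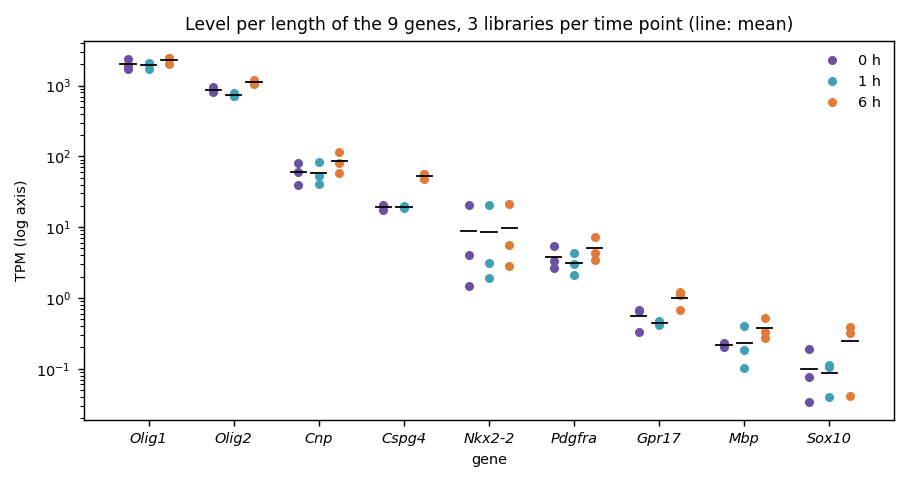
Level of the 9 genes in TPM on a log axis, with 1 point per library (3 at each time point) and a line at the mean of each time point. Olig1 and Olig2 lie at or above 714 TPM in every library, whereas Sox10 lies below 0.4 TPM.

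The study made the time course to look for more transcripts regulated by intron detention, in which unspliced transcripts stay in the nucleus. It also examined changes in gene expression, which are the subject here. Counts per gene do not show whether a transcript was spliced. At 6 h, 6 of the 9 lineage genes were higher than at 0 h once the replicate number was taken into account (Cspg4, Pdgfra, Olig2, Sox10, Gpr17 and Cnp), none was lower, and Cspg4 was the only one to pass without that term. Of all tested genes, 17.4% were called higher and 17.5% lower with that term, and 1.46% and 0.955% without it. At 1 h none of the 9 passed the test. The replicate number matters here because libraries with the same number resembled each other across time points. For each lineage gene, the change at 6 h against 0 h is given from fits without the number and with it (replicate block). All tests are edgeR quasi-likelihood tests with Benjamini-Hochberg adjustment over the 18858 tested genes, called at an adjusted p under 0.05.

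At 6 h against 0 h, the share of all tested genes called without the block was 1.46% higher and 0.955% lower, and with the block it was 17.4% higher and 17.5% lower. Among the 9 lineage genes, the count was 1 higher and 0 lower without the block, and 6 higher and 0 lower with it. All 9 log2 fold changes were above zero, with a median of 0.44 in both fits, whereas the median of all tested genes was -7.8e-05 with the block. For 6 h against 1 h, the shares of all tested genes were 1.48% higher and 0.663% lower without the block and 18.0% higher and 17.5% lower with it, and 1 and 6 of the 9 genes were called higher. In number, these were 279 higher and 125 lower without the block, and 239 higher and 189 lower with trends in GC content and length removed. At 1 h against 0 h, 0.0424% of all tested genes were called higher and 0% lower without the block, against 1.36% higher and 2.14% lower with it. None of the 9 genes was called at 1 h in either edgeR fit or by DESeq2, at an unadjusted p under 0.05 there were 0 without the block and 2 with it, and 5 of the 9 log2 fold changes were above zero. The comparisons share libraries and are not independent of each other.

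**Figure D2:**
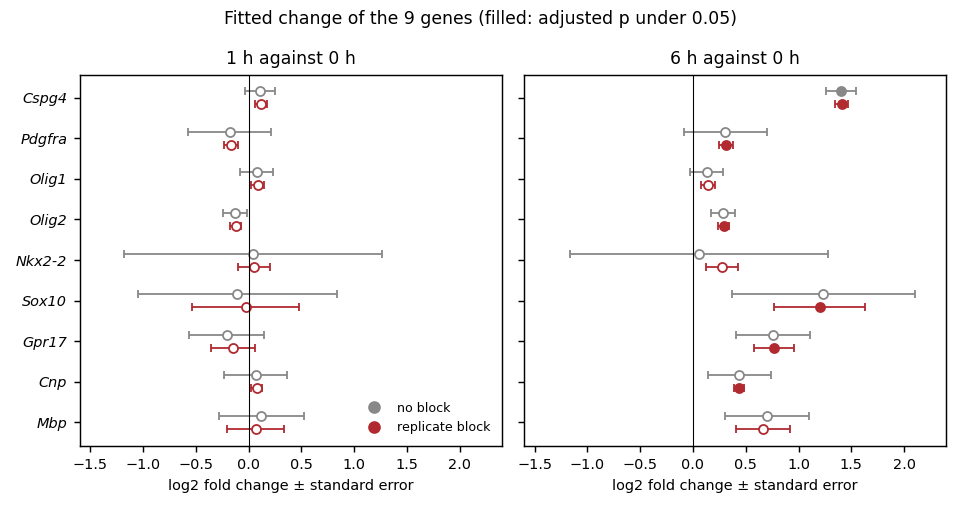
Fitted log2 fold change ± standard error of the 9 genes at 1 h and at 6 h against 0 h, without (grey) and with (red) the replicate block, with filled points for an adjusted p under 0.05. At 6 h all 18 points lie above zero and the red bars are shorter than the grey ones, while at 1 h no point is filled.

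Of the 2 surface protein genes of the progenitor, Cspg4 was called higher at 6 h in both fits and Pdgfra only with the block. Cspg4 (ENSMUSG00000032911, chr9:56865033-56899870, plus strand) encodes NG2, a transmembrane proteoglycan. Its level at 0 h was 70.0, 54.3 and 73.5 CPM in replicates 1, 2 and 3. At 1 h it was 79.5, 63.0 and 71.0 CPM, and at 6 h it reached 183, 151 and 188 CPM. Every library at 6 h was above every library at 0 h and 1 h, and the 3 replicate numbers rose by almost the same factor, 2.56 to 2.79 times. The mean went from 65.9 ± 10.2 CPM (SD, n = 3) to 174 ± 19.9 CPM (SD, n = 3), a log2 fold change of 1.40 (SE 0.14, edgeR adjusted p = 0.00672), and 1.41 with the block (SE 0.06, edgeR adjusted p = 1.06e-08). Against 1 h the log2 fold change at 6 h was 1.29 without the block (SE 0.14, edgeR adjusted p = 0.00987). With the block it was also 1.29 (SE 0.06, edgeR adjusted p = 1.79e-08). The call at 6 h held in all 9 fits that left out 1 library, with log2 fold changes of 1.29 to 1.501 and edgeR adjusted p of 0.0133 to 0.0383.

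Cspg4 is also transcribed by mural cells of blood vessels. The 8 mural cell markers had sums of 52.0 to 95.3 CPM (0 h), 63.2 to 109 CPM (1 h) and 32.6 to 46.0 CPM (6 h), led by Acta2, Rgs5 and Pdgfrb, and 3 of the 8 had enough counts to be tested. Nearly all of the sum was Acta2, with means of 77.2 CPM at 0 h and 36.6 CPM at 6 h, beside 1.99 and 1.18 CPM for Rgs5 and 0.165 and 2.12 CPM for Pdgfrb. Acta2 and Rgs5 fell at 6 h with the block (log2 fold changes of -1.06 and -0.77, edgeR adjusted p = 4.13e-08 and 0.00430) and were not called without it (edgeR adjusted p = 0.133 and 0.700), whereas Pdgfrb, the second PDGF receptor, rose with the block. The part of mural cells in the level of Cspg4 was not tested.

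Pdgfra (ENSMUSG00000029231, chr5:75152292-75198215, plus strand) encodes the receptor for PDGF-AA, the main mitogen of the progenitors. It stood at 7.84, 8.87 and 16.5 CPM at 0 h, 7.14, 8.13 and 14.0 CPM at 1 h, and 9.66, 11.3 and 20.0 CPM at 6 h in replicates 1, 2 and 3. Replicate 3 was highest at each time point, so the time points overlapped. Within a replicate number, the change was nearly constant, 0.849 to 0.917 times at 1 h and 1.21 to 1.28 times at 6 h relative to 0 h. The rise at 6 h was called with the block (log2 fold change 0.31, SE 0.07, edgeR adjusted p = 0.00294) and not without it (0.30, SE 0.39, edgeR adjusted p = 0.780). It was called in all 6 fits with a block, by edgeR or DESeq2, with adjusted p of 0.00122 to 0.0423. The lower value at 1 h, present in 3 of 3 pairs, did not pass (log2 fold change -0.17, SE 0.07, unadjusted p = 0.0284, edgeR adjusted p = 0.210 with the block). The rise from 1 h to 6 h passed with the block (0.48, SE 0.07, edgeR adjusted p = 0.000144) and not without it (0.49, SE 0.39, edgeR adjusted p = 0.600).

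**Figure D3:**
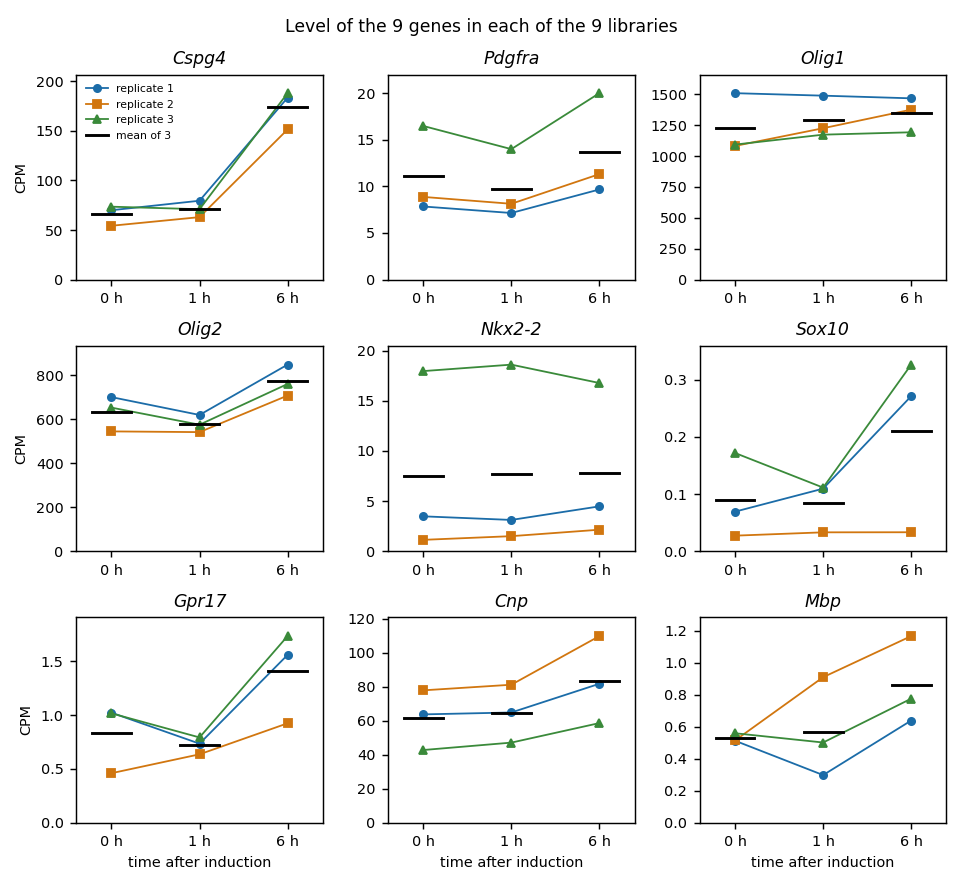
CPM of each of the 9 genes in the 9 libraries by time point (linear axes starting at 0), with 1 coloured line per replicate number and a black bar for the mean of 3. Cspg4 rises in all 3 lines by a similar amount, while for Pdgfra, Nkx2-2 and Cnp the lines lie apart at every time point.

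Of the 4 transcription factor genes, Olig2 rose modestly and Sox10 rose from a handful of reads, while Olig1 and Nkx2-2 did not pass the test. Olig1 (ENSMUSG00000046160, chr16:91269772-91271933, plus strand) and Olig2 (ENSMUSG00000039830, chr16:91225457-91228677, plus strand) encode basic helix-loop-helix factors and lie 41094 bases apart on the same strand. Olig2 is required for the specification of the lineage. Its levels were 701, 545 and 653 CPM at 0 h, 620, 542 and 576 CPM at 1 h, and 849, 708 and 761 CPM at 6 h. The 3 libraries at 6 h were all above the 3 at 0 h, and in each pair 1 h was the lowest time point. With the block the log2 fold change at 6 h was 0.29 (SE 0.05, edgeR adjusted p = 0.000742), called in all 6 fits with a block (adjusted p 1.52e-06 to 0.0221 by edgeR or DESeq2). Without the block it was 0.29 (SE 0.11, edgeR adjusted p = 0.233), and the size fell to 0.16 with either fit after trends in GC content and length were removed.

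The dip of Olig2 at 1 h was 0.881 to 0.994 times the 0 h level in 3 of 3 pairs. It was not called with the block (log2 fold change -0.12, SE 0.05, unadjusted p = 0.0313, edgeR adjusted p = 0.220). It passed in only 1 of the 6 fits with a block, the one with GC and length trends removed (-0.17, edgeR adjusted p = 0.0474). From 1 h to 6 h Olig2 rose in all 3 pairs by 1.31 to 1.37 times (log2 fold change 0.41 with the block, SE 0.05, edgeR adjusted p = 5.61e-05). Without the block, edgeR did not call that rise (0.42, SE 0.11, edgeR adjusted p = 0.107).

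Olig1, which acts in the later maturation of the lineage, was the most abundant of the 9 genes and moved little. It measured 1509, 1082 and 1093 CPM at 0 h, 1489, 1226 and 1173 CPM at 1 h, and 1468, 1376 and 1193 CPM at 6 h. Replicates 2 and 3 were higher at 6 h than at 0 h and replicate 1 was lower, so the direction differed between pairs. The log2 fold change at 6 h was 0.14 with the block (SE 0.06, edgeR adjusted p = 0.0991) and 0.13 without it (SE 0.16, edgeR adjusted p = 0.758). It was called in 1 of the 6 fits with a block, the one without replicate 1 (0.24, edgeR adjusted p = 0.0298), and its value was at zero when GC and length trends were removed (-0.0025 without the block and 0.0023 with it). Olig1 shares 157 exonic bases with a lincRNA on the other strand, Gm15966, which had at most 2 counts.

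Nkx2-2 (ENSMUSG00000027434, chr2:147177546-147194243, minus strand), a homeodomain factor that promotes the differentiation of progenitors, differed between replicate numbers far more than between time points. Replicate 3 held 18.0, 18.6 and 16.8 CPM in time order, replicate 1 held 3.47, 3.11 and 4.47 CPM, and replicate 2 held 1.12, 1.49 and 2.13 CPM. Replicates 1 and 2 were higher at 6 h than at 0 h, by up to 1.90 times, and replicate 3 was 0.934 times its 0 h level. The test found no call at 6 h (log2 fold change 0.27 with the block, SE 0.15, edgeR adjusted p = 0.178, and 0.05 without it, SE 1.22, edgeR adjusted p = 0.992). Without replicate 3 the blocked fit gave 0.59 (edgeR adjusted p = 0.0172), the only 1 of 6 fits with a block that called it. Nkx2-2 shares 278 exonic bases with Nkx2-2os on the other strand, which had 5 to 109 counts.

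Sox10 (ENSMUSG00000033006, chr15:79154908-79165240, minus strand), a factor needed for terminal differentiation and for the transcription of myelin genes, was barely detected. It had 5, 2 and 12 counts at 0 h, 7, 3 and 8 counts at 1 h, and 20, 3 and 35 counts at 6 h in replicates 1, 2 and 3. Replicates 1 and 3 were higher at 6 h than at either earlier time, while replicate 2 stayed at 3 counts or fewer. The log2 fold change at 6 h was 1.20 with the block (SE 0.43, edgeR adjusted p = 0.0472) and 1.23 without it (SE 0.86, edgeR adjusted p = 0.534). That call rests on few reads: of 5 fits with a block that gave an adjusted p, it was the only one to pass, and the others reached up to 0.369.

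Gpr17 (ENSMUSG00000052229, chr18:31942997-31949636, minus strand), a G protein-coupled receptor of committed progenitors, rose by 6 h. It had 1.02, 0.460 and 1.02 CPM at 0 h, 0.734, 0.635 and 0.793 CPM at 1 h, and 1.56, 0.924 and 1.74 CPM at 6 h, from 34 to 186 counts per library. Each pair was higher at 6 h, by 1.53 to 2.01 times, although replicate 2 at 6 h lay below replicates 1 and 3 at 0 h. The log2 fold change was 0.77 with the block (SE 0.19, edgeR adjusted p = 0.00700), called in all 6 fits with a block (adjusted p up to 0.0372 by edgeR or DESeq2), and 0.76 without it (SE 0.35, edgeR adjusted p = 0.311). Gpr17 shares 188 exonic bases with Lims2 on the other strand, which had 8 to 23 counts.

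Of the 2 myelin-related genes, Cnp rose and Mbp did not pass the test. Cnp (ENSMUSG00000006782, chr11:100574904-100591729, plus strand) encodes an enzyme of the cytoplasmic loops of myelin that is already present in progenitors. Its levels were 63.7, 77.8 and 42.7 CPM at 0 h, 64.8, 81.2 and 47.1 CPM at 1 h, and 81.7, 110 and 58.6 CPM at 6 h. Replicate 2 was highest and replicate 3 lowest at each time point, so the groups overlapped, yet each pair rose by 1.28 to 1.41 times at 6 h. The log2 fold change was 0.44 in both fits, with an SE of 0.05 and an edgeR adjusted p of 2.77e-05 with the block, and an SE of 0.30 and an edgeR adjusted p of 0.516 without it. All 6 fits with a block called it, with adjusted p up to 0.00250 by edgeR or DESeq2. Cnp shares 154 exonic bases, 4.2% of its exonic length, with Dnajc7 on the other strand, a gene with 9184 to 17409 counts per library, and the strand setting of the counting is not given in the sources used here.

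Mbp (ENSMUSG00000041607, chr18:82475146-82585637, plus strand), the gene of myelin basic protein, was near the lower end of what could be tested, with 19 to 106 counts per library. It had 0.512, 0.514 and 0.559 CPM at 0 h, 0.297, 0.909 and 0.501 CPM at 1 h, and 0.638, 1.17 and 0.775 CPM at 6 h. All libraries at 6 h were above all at 0 h, by 1.25 to 2.27 times within a pair, and the 1 h libraries were spread over both. At 6 h the log2 fold change was 0.66 with the block (SE 0.26, edgeR adjusted p = 0.0617) and 0.70 without it (SE 0.40, edgeR adjusted p = 0.420). In the blocked fit without replicate 1 it passed (0.84, edgeR adjusted p = 0.0392).

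Several lineage genes differed between replicate numbers at all time points. The mean over the 3 time points differed 11.2 times between replicate 3 (17.8 CPM) and replicate 2 (1.58 CPM) for Nkx2-2, and 6.56 times for Sox10 between the same numbers. For Pdgfra the ratio was 2.05, with replicate 3 highest and replicate 1 lowest, and for Cnp it was 1.81, with replicate 2 highest and replicate 3 lowest. Gpr17 (1.76) and Mbp (1.79) were similar. The median ratio over all tested genes was 1.31, and Cspg4 (1.24), Olig1 (1.29) and Olig2 (1.21) lay below it, while Nkx2-2 exceeded that of 98.8% of tested genes. The replicate with the most Nkx2-2 and Pdgfra therefore had the least Cnp. Over the 9 libraries Pearson's r of log2 CPM was -0.80 between Nkx2-2 and Cnp and 0.81 between Nkx2-2 and Pdgfra, which describes 3 replicate numbers sampled 3 times each. After the mean of each replicate number was subtracted, the same pairs had r of 0.70 and 0.56. Among the lineage genes with a mean of at least 1 CPM, r then ranged from 0.39 (Pdgfra and Olig1) to 0.98 (Pdgfra and Olig2).

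**Figure D4:**
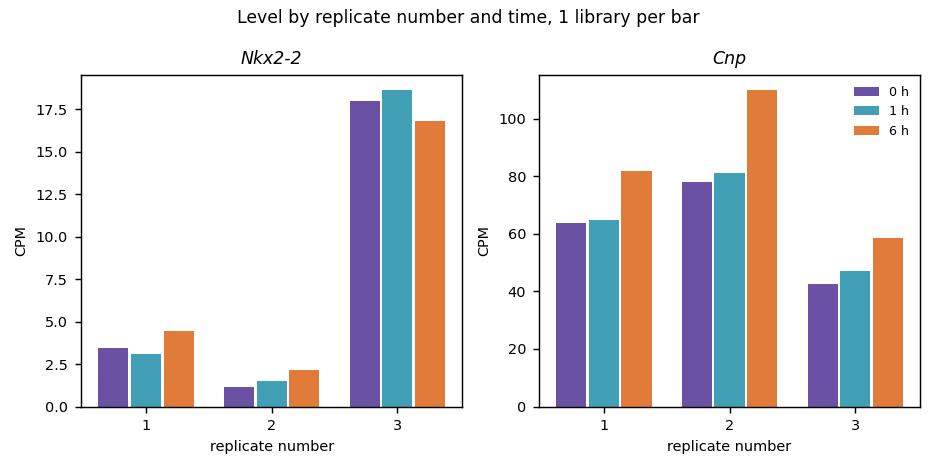
CPM of Nkx2-2 and Cnp by replicate number, with 1 bar per library and a colour for each time point (linear axes from 0). Replicate 3 has the highest Nkx2-2 (16.8 to 18.6 CPM) and the lowest Cnp (42.7 to 58.6 CPM).

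The genes whose pattern over the 9 libraries was most like that of a lineage gene were found by Pearson's r of log2 CPM among 13606 genes, for the 6 lineage genes with a mean of at least 1 CPM. For Cspg4 they included Rpap1 (0.99) and Gm15850 (0.99), and for Pdgfra they were Rgl3 (0.99), Itga1 (0.98) and Jup (0.98). Olig1 was most like Klhl34 (0.98), Pnkd (0.95) and Zcchc18 (0.95), and Olig2 most like Proser3 (0.98), Trmt1l (0.98) and Pcmtd2 (0.97). Nkx2-2 was followed by Nptxr (0.99), Sept8 (0.98) and Slc27a3 (0.98), and Cnp by Zfp418 (0.99), Gdpd2 (0.99) and Cadm4 (0.99). None of these 18 genes was another lineage gene, and none was among the 3 most alike after the mean of each replicate number was subtracted. After that subtraction their r was 0.989 to 0.993 for Cspg4, 0.971 to 0.979 for Olig2, 0.961 to 0.966 for Cnp and 0.927 to 0.956 for Pdgfra. It was 0.784 to 0.920 for Olig1 and 0.421 to 0.720 for Nkx2-2. These genes were picked by r over the same 9 libraries, so the values are a description and not a test of similarity.

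The other genes of the lineage were read in 3 lists by stage, beside the shares of all tested genes called at 6 h against 0 h with the block (17.4% higher and 17.5% lower) and at 1 h against 0 h with the block (1.36% and 2.14%). Of 14 other progenitor genes, 13 were tested and 5 rose at 6 h with the block, with none lower (2 and 0 without it). The median log2 fold change was 0.08, below the 0.44 of the 9 genes. Sox8, a relative of Sox10, went from 118, 108 and 108 CPM at 0 h to 71.5, 80.0 and 70.4 CPM at 1 h and 183, 150 and 201 CPM at 6 h. It thus fell at 1 h (log2 fold change -0.59 with the block, edgeR adjusted p = 0.00237) and rose by 6 h (0.68 without the block, edgeR adjusted p = 0.0266, and 0.67 with it, edgeR adjusted p = 7.57e-05), in 3 of 3 pairs each. Cspg5 (0.61, edgeR adjusted p = 2.05e-06) and Lhfpl3 (0.30, edgeR adjusted p = 0.00179) rose with the block and in 3 of 3 pairs, and not without it (edgeR adjusted p = 0.191 and 0.502). At 1 h, 2 of the 13 were lower with the block, Sox8 and Pcdh15 (-0.24, edgeR adjusted p = 0.0331), and none without it. That count was 1 in each of the 3 blocked fits without a replicate number and with GC and length trends removed.

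Genes of the committed and premyelinating stages and of myelin were called in both directions at 6 h with the block, in numbers to be read beside the 17.4% of all tested genes called higher and 17.5% called lower. Of 12 committed genes, 11 were tested, and with the block 2 rose and 3 fell at 6 h, with a median log2 fold change of 0.05. Gpr37, a receptor of maturing oligodendrocytes, rose by 0.85 (edgeR adjusted p = 0.000126), and Zfp488 (-0.53, edgeR adjusted p = 0.0462), Ugt8a (-0.29, edgeR adjusted p = 0.0229) and Tcf7l2 (-0.22, edgeR adjusted p = 0.0120) fell. Among 10 myelin genes, 8 were tested, 2 rose and 2 fell with the block, and the median was -0.01. Opalin (0.96, edgeR adjusted p = 0.0142), which encodes a membrane protein of oligodendrocytes, rose, while Mobp (-0.84, edgeR adjusted p = 0.0121) and Aspa (-0.67, edgeR adjusted p = 0.0140) fell. Opalin was at or under 1.00 CPM and Mobp at or under 1.54 CPM in every library. Without the block, none of the committed or myelin genes was called (edgeR, 1 in each list at an unadjusted p under 0.05), and at 1 h none was called in either fit (edgeR, 0 in each list at an unadjusted p under 0.05 without the block, and 2 committed and 0 myelin genes with it). Neu4, Bmp4, Mag and Ermn had too few counts to be tested.

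**Figure D5:**
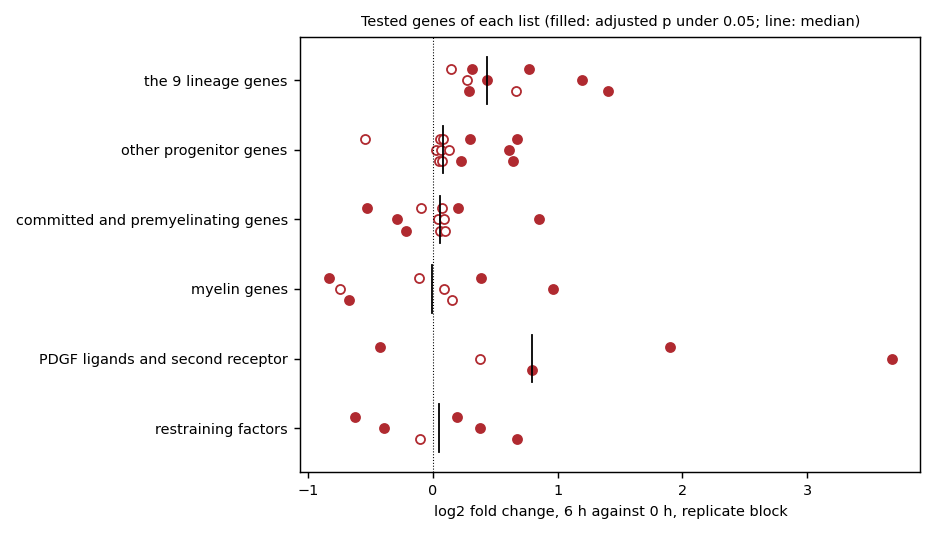
Log2 fold change at 6 h against 0 h with the replicate block for the tested genes of each list (1 point per gene, filled for an adjusted p under 0.05, black line at the median). All 9 lineage genes lie above zero with a median of 0.44, while the committed and myelin lists lie on both sides of zero.

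Of the 5 other genes of the pathway, 3 rose and 1 fell at 6 h with the block (all tested genes 17.4% and 17.5%), and none was called without it (edgeR, 3 at an unadjusted p under 0.05). Pdgfa, the ligand that acts through Pdgfra alone, fell from 24.3, 24.3 and 33.6 CPM at 0 h to 19.9, 17.1 and 24.3 CPM at 6 h (log2 fold change -0.42 with the block, SE 0.07, edgeR adjusted p = 0.000421), the opposite direction to its receptor. Pdgfc, another ligand of Pdgfra, rose from 9.18, 13.7 and 12.9 CPM to 18.3, 21.6 and 21.4 CPM (0.79, SE 0.07, edgeR adjusted p = 5.37e-06). Pdgfb, which binds both receptors, was higher at 1 h (0.82, edgeR adjusted p = 0.0290) and at 6 h (1.90, edgeR adjusted p = 4.46e-06) with the block. It was the only 1 of the 5 called at 1 h with the block, beside 1.36% of all tested genes higher and 2.14% lower. No PDGF gene was called at 1 h in the blocked fits without replicate 2 or 3. The second receptor, Pdgfrb, had the largest change of the pathway, from 0.0691, 0.0405 and 0.387 CPM at 0 h to 0.760, 0.627 and 4.97 CPM at 6 h (3.68, SE 0.23, edgeR adjusted p = 2.31e-07). Pdgfrb and Pdgfra were both highest in replicate 3 at every time point.

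Of 6 factors that restrain the lineage, 3 rose and 2 fell at 6 h with the block, against 17.4% and 17.5% of all tested genes, with a median of 0.05, and none was called without it (edgeR, 1 at an unadjusted p under 0.05). Id2, an inhibitor of basic helix-loop-helix factors, fell in all 3 pairs at 1 h (-0.43, edgeR adjusted p = 0.000490) and at 6 h (-0.63, edgeR adjusted p = 1.76e-06). Hes1, a Notch effector, was likewise lower at 1 h (-0.48, edgeR adjusted p = 0.00336) and at 6 h (-0.39, edgeR adjusted p = 0.00139). By contrast Hes5, a related Notch effector, rose at 6 h (0.68, edgeR adjusted p = 0.00596), as did Sox6 (0.37, edgeR adjusted p = 0.00117), a SOX factor of progenitors. These values are from the fit with the block. It called 2 of the 6 genes lower and 0 higher at 1 h, beside 2.14% and 1.36% of all tested genes. At 1 h without the block, none of the 6 genes was called (edgeR, 0 at an unadjusted p under 0.05).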

How the data were processed

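RNA-seq was made from 9 libraries of mouse NSCs (0 h, 1 h and 6 h, n = 3 each). The authors deposited raw counts of reads per Ensembl gene, which per the labels came from STAR 2.5.3a on mm10 (GRCm38), and the values are whole numbers that were not normalised. The authors assessed reads with FastQC and tested with DESeq2 1.22.1, while the strand setting of the counting and any covariate are not given in the sources used here. Symbols, positions and exonic lengths came from GENCODE M21, which held 48144 of the 48526 identifiers. No row without a gene name was present, and no 2 libraries held the same counts (chi-square per degree of freedom of at least 13.4).

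Tests used edgeR 4.0.16 in R 4.3.3 (filterByExpr with a minimum count of 10 and a minimum total of 15, TMM, glmQLFit and glmQLFTest), and summaries and plots used pandas 2.3.3, matplotlib 3.10.9 and numpy 2.4.6 (Python 3.11.15). The 9 libraries were fitted together with time as the group. CPM were computed with TMM factors of 0.972 to 1.02, and TPM with the union of exons. Log2 CPM for correlations used a prior count of 2. Standard errors were derived from the F statistic. The script was tested on simulated data. The labels give replicate numbers 1 to 3, and after subtraction of time point means, libraries with the same number correlated at 0.733 to 0.800 in 9 pairs and those with other numbers at -0.462 to -0.314 in 18 pairs, so the numbers pair the samples. Nothing states that the replicates are separate cultures, and p-values then measure only the spread between these samples. Alternatives were DESeq2 1.42.0, the replicate block, RLE or library-total scaling, other filters on low counts, only the 6 libraries compared, offsets for GC content and length (known for 99.6% of tested genes) and leaving out libraries.

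All 9 lineage genes are named. From each other list of the lineage, up to 4 called genes with the largest change at 6 h and then at 1 h are named, from each marker list the 3 most abundant and any at 0, and for each lineage gene with a mean of at least 1 CPM the 3 genes of highest Pearson r. Genes that this rule names but whose values are absent from the text are not reported here. Acta2 and Rgs5 were given fold changes after their values were seen, and Gfap, Aqp4 and S100b were named for their low values. The genes and lists were chosen with earlier results of these data known. Promoter sequences are from RefSeq (GRCm38.p6), whose table held 5 of the 9 genes. Depth limits precision for Sox10, Gpr17 and Mbp, and intervals of counting error were not needed because replicates give the error.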

Additional observations from a re-analysis of the deposited data

How the results depend on the processing

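With the replicate block, 6 lineage genes were called at 6 h against 0 h and 6 at 6 h against 1 h, where 1 was called in each without it. Block and DESeq2 together gave 5 in each, and block with GC content and length trends removed gave 1 at 1 h (Olig2, lower), 5 at 6 h against 0 h and 6 at 6 h against 1 h. DESeq2 without the block called 2 at 6 h against 1 h. Blocked fits without 1 replicate number called 0 to 1 lineage genes at 1 h (Cspg4 without replicate 3, log2 fold change 0.20), 5 to 7 at 6 h against 0 h and 5 to 6 at 6 h against 1 h. Among all tested genes, the same fits called 184 to 478, 3656 to 6762 and 4132 to 6425 in that order. The other fits without the block, including the 9 without 1 library, gave 0 at 1 h and 1 in each comparison with 6 h. Of all tested genes, 456 were called at 6 h against 0 h without the block and 6581 with it, 1482 by DESeq2, 205 with no filter, 113 from only the 6 libraries compared and 39 to 508 without 1 library. Block and DESeq2 together called 6047 at 6 h against 0 h and 6108 at 6 h against 1 h. The block with GC and length trends removed called 702 at 1 h, 6971 at 6 h against 0 h and 7309 at 6 h against 1 h. At 6 h against 1 h, 404 were called without the block, 6710 with it and 1425 by DESeq2.

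At 6 h against 0 h, the block called 5 of 13 tested other progenitor genes, 5 of 11 committed and 4 of 8 myelin genes. It called 4 of 5 PDGF and 5 of 6 restraining genes, higher and lower counted together. Of all tested genes, the block called 17.4% higher and 17.5% lower. In the same order, block and DESeq2 gave 5, 4, 4, 4 and 5. The block with GC and length trends removed gave 6, 5, 4, 4 and 5. Without the block, the counts were 2, 0, 0, 0 and 0, beside 1.46% of all tested genes higher and 0.955% lower. Progenitor genes called went to 1 in the fit of only the 6 libraries compared and to 0 to 2 without 1 library (0 without any of the 0 h libraries or without 6 h replicate 1). PDGF genes went to 1 with DESeq2 and to 1 with a minimum mean of 1 CPM, and restraining genes to 1 with GC and length trends removed and to 0 to 1 without 1 library. In blocked fits without 1 replicate number, the counts were 4 to 5 progenitor, 2 to 5 committed, 1 to 3 myelin, 4 PDGF and 4 restraining genes. None of the 18 genes of most similar pattern was again among the 3 most alike with replicate means subtracted (0 of 18).

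Direction changed in log2 fold changes that were not called without the block, to values between -1.71 and 0.76. With GC and length trends removed, Olig1 was at -0.0025 (6 h against 0 h) and -0.0049 (6 h against 1 h, -6.6e-05 with the block), and Nkx2-2 at -0.034 (1 h, -0.00199 with the block), -0.047 (6 h against 0 h) and -0.013 (6 h against 1 h). Without 1 library or number, the 1 h values ranged from -0.0082 to 0.19 for Cspg4 (0.069 to 0.20 with the block), -0.53 to 0.22 for Pdgfra, -0.030 to 0.25 for Olig1, -1.71 to 1.75 for Nkx2-2 (-0.022 to 0.15 with the block), -0.54 to 0.76 for Sox10, -0.50 to -0.034 for Gpr17 (-0.42 to 0.029 with the block), -0.14 to 0.28 for Cnp and -0.40 to 0.43 for Mbp (-0.43 to 0.38 with the block). At 6 h against 0 h they ranged from -0.076 to 0.71 for Pdgfra and -1.19 to 1.76 for Nkx2-2, and at 6 h against 1 h from -0.014 to 0.16 for Olig1 and -1.23 to 1.77 for Nkx2-2. The cause of these differences was not tested. DESeq2 gave no adjusted p for Sox10 without the block, or for Sox10, Gpr17 and Mbp at 1 h with it. Sox10, Gpr17 and Mbp had at most 35, 186 and 106 counts, which limits what their tests can show.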
